A study of Drosophila melanogaster with 4 samples.

Results

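H3K27me2 regions along the X chromosome are the members described here, chosen as every entry placed on the scaffold X in 3 deposited lists of enriched regions. There were 2025 such regions of 12968 in ChIP replicate 1, 1836 of 11483 in ChIP replicate 2, and 2823 of 17184 in the authors' combined list of the replicate set. Chromatin came from whole embryos of Drosophila melanogaster, strain Oregon-R, genotype wild type, aged 14 to 16 h and crosslinked with formaldehyde. The 2 ChIP samples were made with the H3K27me2 antibody Ab24684, and the 2 input samples entered no comparison because no region list of theirs was analysed here. All groups share strain, genotype and age, and the embryos mix every cell type of that stage, so a region cannot be assigned to a tissue. The labels do not give the sex of the embryos, and so not the number of X copies per cell.

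Methylation of lysine 27 of histone H3 is placed by Polycomb repressive complex 2, whose catalytic subunit in flies is Enhancer of zeste. The dimethylated form is known in flies as a broad mark of inactive and intergenic chromatin, whereas the trimethylated form is concentrated at Polycomb target genes. The demethylase Utx and transcription through a gene are known to counteract the mark. The fly X is also known for dosage compensation, in which the MSL complex binds active X-linked genes of males and acetylates histone H4.

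Coordinates are those of FlyBase release 5, and the X scaffold is 22422827 bp long. Low coordinates lie at the distal end, the telomere, and high coordinates at the proximal end, towards the centromere. Depth is unknown, since the lists hold positions and scores without read counts, and sequence outside a region is called uncalled here. The score is the authors' own value on an unnamed scale. Each region was therefore given its percentile of score within its own whole list, where 100 is the highest. Values are mean ± SD over the ChIP replicates (n = 2). An exact two-sided permutation test by sign flips over 2 replicates can reach no p under 0.5. No test was therefore run. X was set against the autosomal arms within each list, and overlap of replicate values is stated for the main contrasts.

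Regions on X were short, and were separated by gaps of very unequal length. They numbered 90.3 per Mb in replicate 1 and 81.9 per Mb in replicate 2. The median width was 2001 bp ± 71.1 (SD, n = 2), with quartiles at 1647 and 2957 bp in replicate 1 and at 1539 and 2660 bp in replicate 2. The narrowest region spanned 1301 bp in each replicate, and the widest spanned 24054 bp in replicate 1 and 13570 bp in replicate 2. The gap to the next region had a median of 3196 bp in replicate 1 and 3629 bp in replicate 2. Gaps under 1 kb made up 24.3% of all gaps in replicate 1 and 21.0% in replicate 2. At the other extreme, the 223 gaps of at least 20 kb in replicate 1 held 41.5% of the whole chromosome, and the 241 such gaps in replicate 2 held 47.8%. A large part of X thus lay in relatively few long gaps. The same was true to a lesser degree elsewhere. Such gaps held 30.5% to 33.4% of single autosomal arms in replicate 1 and 37.8% to 42.1% in replicate 2.

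The first X region lay at the same place in every list, from 6430 to 7762 in replicate 1, from 6467 to 7791 in replicate 2, and, as the combined list has it, from 5990 to 7942. Its score stood at percentile 13.3 in replicate 1 and 4.91 in replicate 2, and at 23.8 among combined regions, below most X regions of each. The last region lay from 22391822 to 22398456 in replicate 1, from 22392010 to 22398254 in replicate 2, and from 22391756 to 22398752 when combined. It was high in score, at percentile 96.6 in replicate 1, 93.4 in replicate 2 and 97.8 among combined regions. Called regions thus spanned the scaffold nearly from end to end.

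Set against the 4 autosomal arms 2L, 2R, 3L and 3R, X regions taken over all scores were fewer per length, narrower and more widely spaced in both replicate lists. X had 90.3 regions per Mb in replicate 1, where the autosomal arms had 102.0 to 108.4. In replicate 2, X had 81.9 per Mb and the autosomal arms 88.1 to 97.7. Across the replicates these values overlapped, as X in replicate 1 stood above 2L in replicate 2 (88.1). The combined list differed in this, with 126 per Mb on X and 114.5 on 2R. The 90th percentile of width was also lower, at 4317 bp on X and 4667 to 6090 bp on the autosomal arms in replicate 1. In replicate 2 it was 3785 bp on X and 4181 to 4903 bp on the autosomal arms. Widths also overlapped across the replicates, as X in replicate 1 stood above 2L in replicate 2 (4181 bp). The very widest regions did not set X apart from every arm. In replicate 1, 17 X regions (0.840%) spanned at least 10 kb, a share between those of the autosomal arms, from 0.597% on 2L to 1.85% on 2R (whole list 1.01%). Replicate 2 had 4 such X regions (0.218%), and the autosomal arms had from 0.197% on 2L to 1.06% on 2R (whole list 0.409%). The combined list had 94 (3.33%), below the 3.62% to 8.01% of the autosomal arms (whole list 4.31%).

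The third quartile of the gaps was 9081 bp on X and 5981 to 7706 bp on the autosomal arms in replicate 1. In replicate 2 it was 10533 bp on X and 7422 to 9766 bp on the autosomal arms. Across the replicates these overlapped, as X in replicate 1 stood below 2L in replicate 2 (9766 bp). The median gap of X lay above all of the autosomal arms in replicate 1, but equalled that of 2L, 3629 bp, in replicate 2. Both the density and the spacing turned round when regions scoring below their list's median were left out. That threshold kept 1427 of 2025 X regions and 4654 of 10200 autosomal regions in replicate 1, and 1377 of 1836 X regions and 4046 of 9090 autosomal regions in replicate 2, because X scores were higher as a whole. The regions kept numbered 63.6 per Mb for X and 48.2 per Mb for the autosomal set in replicate 1, and 61.4 for X and 41.9 for the autosomal set in replicate 2. Longer autosomal gaps follow from this by construction. X minus the autosomal arms together, in median gap as the mean of the replicates, was 603 bp with all regions and -3049 bp among the regions kept.

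Scores on X were shifted upward as a whole, not only at the top. In replicate 1, 18.3% of X regions (370) fell in the top 10% of scores, against 7.67% of autosomal regions (whole list 10.0%). In replicate 2 the shares were 22.2% of X regions (407) and 6.82% of autosomal regions (whole list 10.0%). The combined list had 13.4% of X regions (377) and 6.84% of autosomal regions in its top 10% (whole list 10.0%). The lowest 10% of scores held 3.51% of X regions (71) and 11.3% of autosomal regions in replicate 1 (whole list 9.99%). In replicate 2 it held 2.34% of X regions (43) and 11.7% of autosomal regions (whole list 10.0%). The 10th percentile of the X regions stood at percentile 23.1 of the list in replicate 1 and 26.4 in replicate 2, where single autosomal arms lay between 8.09 and 10.1 and between 7.53 and 9.52. Each quartile of X, in each of the 3 lists, was above that of every autosomal arm. Since the number of X copies is not given and no list holds reads, a difference in copy number and a difference in the mark cannot be told apart.

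**Figure D1:**
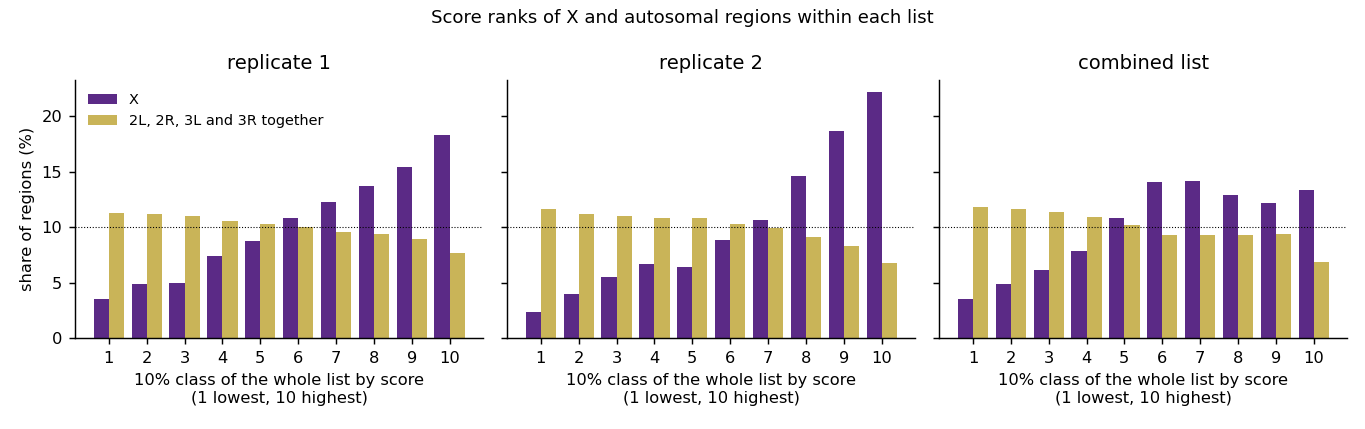
Share of regions (y axis, percent) in each 10% class of the whole list by score (x axis, 1 lowest to 10 highest), for X and for the autosomal arms 2L, 2R, 3L and 3R together, in replicate 1, replicate 2 and the combined list; the dotted line marks 10%. In replicates 1 and 2 the X bars climb to 18.3% and 22.2% in the top class, where the autosomal bars stand at 7.67% and 6.82%.

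The upward shift was larger among narrow regions than among wide ones. Width and score rank were tied, with a Spearman's rho of 0.71 across the 2025 X regions of replicate 1 and 0.61 across the 1836 of replicate 2, and regions of a list are not independent. Score rank rose most steeply with width near 2 kb, and did not rise steadily in classes of 100 bp on either side. On X in replicate 1, the median percentile was 42.8 from 1300 to 1400 bp and 35.7 from 1500 to 1600 bp. From 2800 to 2900 bp it was 77.7. In broad classes it went on rising, at 79.0 from 2000 to 3000 bp, 86.6 from 3000 to 5000 bp and 92.8 above. X regions between 1700 and 1800 bp wide had a median score percentile of 37.7 in replicate 1 and 51.7 in replicate 2. Those between 2300 and 2400 bp wide had 84.4 in replicate 1 and 88.4 in replicate 2, and the class from 2000 to 2100 bp lay between, at 66.8 and 77.9. That class was also a second peak of the width distribution, with 144 X regions in replicate 1 and 138 in replicate 2, against 107 and 130 in the class from 1700 to 1800 bp. Autosomal regions had the step at the same width, with medians of 16.6, 41.1 and 66.5 in these 3 classes of replicate 1.

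At equal width X regions ranked higher than autosomal ones. From 1500 to 2000 bp, X regions had a median score percentile of 45.7 in replicate 1, where autosomal regions had 19.3, and of 53.4 in replicate 2, where autosomal regions had 23.3. From 3000 to 5000 bp, X regions had 86.6 and autosomal regions 67.3 in replicate 1, and X regions had 88.6 and autosomal regions 70.8 in replicate 2. At 5000 bp or more the distance was smallest, with 92.8 for X and 82.8 for autosomal regions in replicate 1, and 94.7 for X and 81.9 for autosomal regions in replicate 2. Percentiles have a ceiling at 100, which limits the distance among high ranks. X regions ranked higher in all 5 width classes of both replicates.

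**Figure D2:**
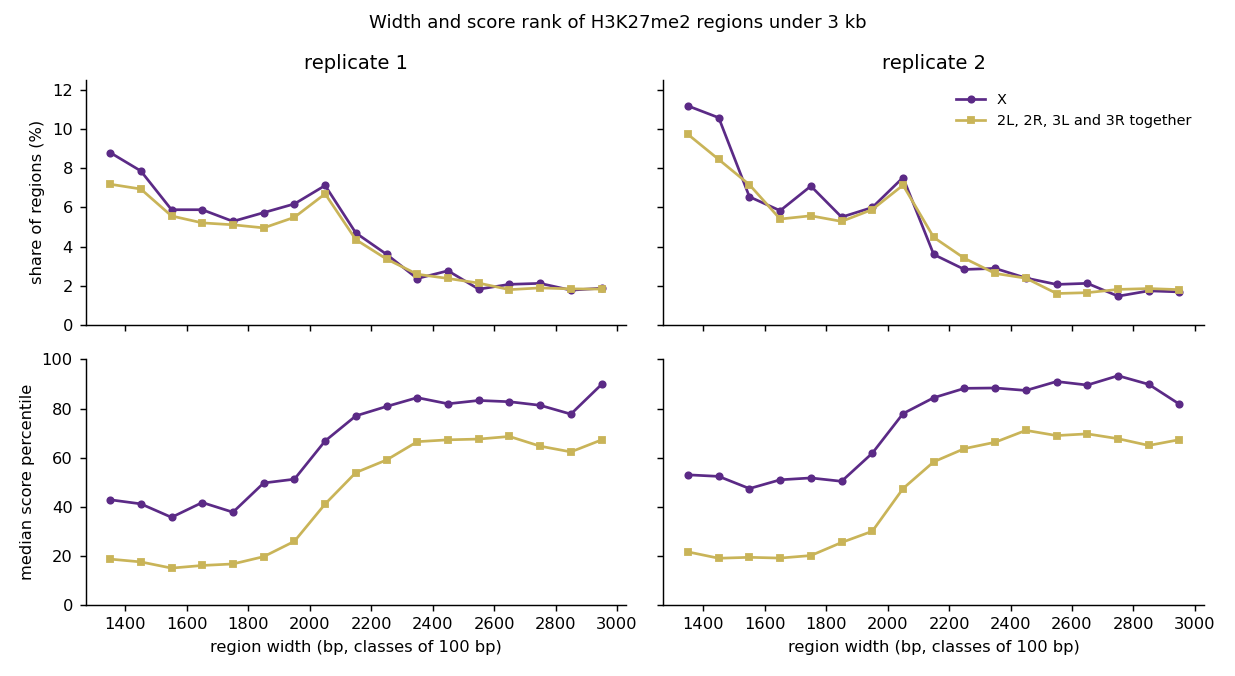
Regions under 3 kb in classes of 100 bp of width (x axis), for X and for the autosomal arms together, with the share of regions (percent, upper panels) and the median score percentile within the whole list (lower panels), in replicate 1 and replicate 2. Score rank steps up near 2 kb in both sets, and the X line lies above the autosomal line in every class of both replicates.

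Along X, coverage varied from window to window far more than it trended from end to end. In the 224 full windows of 100 kb, the mean covered share of the replicates had a median of 20.8%, quartiles of 11.9% and 29.0%, and extremes of 0 and 63.0%. The number of regions per window ran from 0 to 21 in each replicate, with a median of 9 in replicate 1 and 8 in replicate 2. Spearman's rho of covered share with window number, from distal to proximal, was -0.07 in replicate 1 and -0.09 in replicate 2, and that of a region's score percentile with its position was -0.05 and -0.03. These correlations run across windows or regions of 1 library and are given as descriptions. A window resembled its neighbour, with a rho of 0.36 for windows 100 kb apart, 0.22 at 200 kb, 0.11 at 300 kb and 0.02 at 1000 kb. The likeness thus faded within a few windows. The coefficient of variation over windows was 0.56 on X and 0.45 to 0.55 on the autosomal arms in replicate 1, and 0.60 on X and 0.50 to 0.59 on the autosomal arms in replicate 2. X minus the autosomal arms together was 0.04 as the mean of the replicates, and -0.10 when regions scoring below their list's median were left out. Single regions resembled the next region only weakly, with a rho of 0.09 for width and 0.06 for score percentile in replicate 1, and 0.07 and 0.09 in replicate 2.

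**Figure D3:**
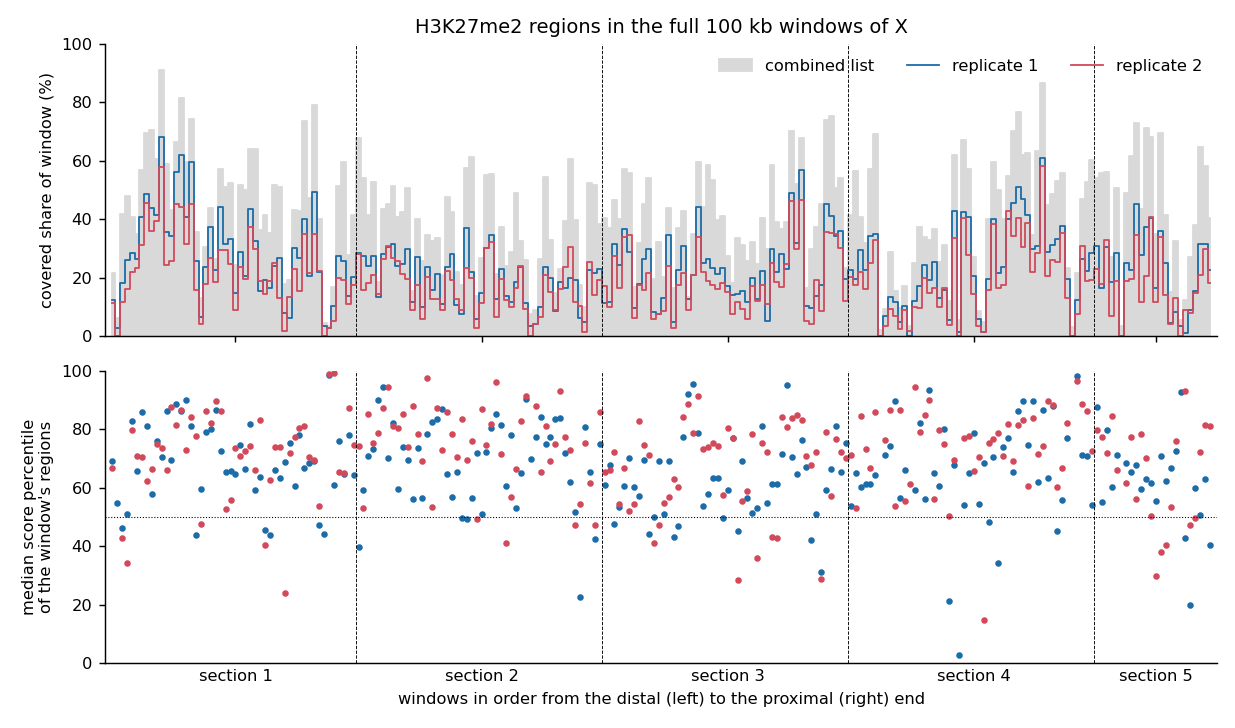
Covered share of each full 100 kb window of X (upper panel, percent; lines are the replicates and grey is the combined list) and median score percentile of the regions centred in it (lower panel, points are the replicates), in order from the distal to the proximal end; dashed lines bound sections of 5 Mb. Peaks stand near the distal end in section 1 and in the proximal part of section 4, with the highest window at 63.0% as the mean of the replicates.

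The 5 sections, of 5 Mb each from the distal end and with the remaining 2.42 Mb as the fifth, differed in how much was covered and little in width. Covered shares were 25.5% ± 4.10 in section 1, 17.9% ± 1.94 in section 2, 21.0% ± 2.87 in section 3, 21.6% ± 3.11 in section 4 and 19.7% ± 3.01 in section 5 (SD, n = 2 each). Section 1 was highest and section 2 lowest within each replicate, and the lower value of section 1 (22.6%, replicate 2) stood above the higher of section 2 (19.3%, replicate 1). Sections 3, 4 and 5 overlapped in their replicate values. Section 1 also overlapped sections 3 and 4, and section 2 overlapped sections 3 and 5. The median gap followed the same order at its ends, with 2634 bp ± 71.4 in section 1 and 4452 bp ± 628 in section 2. Section 4 also had short gaps, at 2904 bp ± 258, but it held many long ones too. Median widths lay between 1931 and 2082 bp in all sections, as means of the replicates, so the number and spacing of regions varied more than their width.

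Score rank was similar along X and, as the mean of the replicates, lowest in the most proximal section. The median score percentile was 73.0 ± 2.16 in section 1, 72.6 ± 5.75 in section 2, 68.1 ± 4.57 in section 3, 72.5 ± 4.29 in section 4 and 65.6 ± 0.308 in section 5 (SD, n = 2 each). The order was not the same in both replicates. Section 5 was lowest in replicate 2, at 65.8, while in replicate 1 section 3 stood at 64.8 and section 5 at 65.4. The share of regions in the top 10% of scores was 24.8% ± 1.25 in section 4 and 15.7% ± 0.528 in section 5, and these replicate values did not overlap (23.9% and 25.7% against 15.4% and 16.1%). All 5 sections were above the whole-list share of 10.0%.

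**Figure D4:**
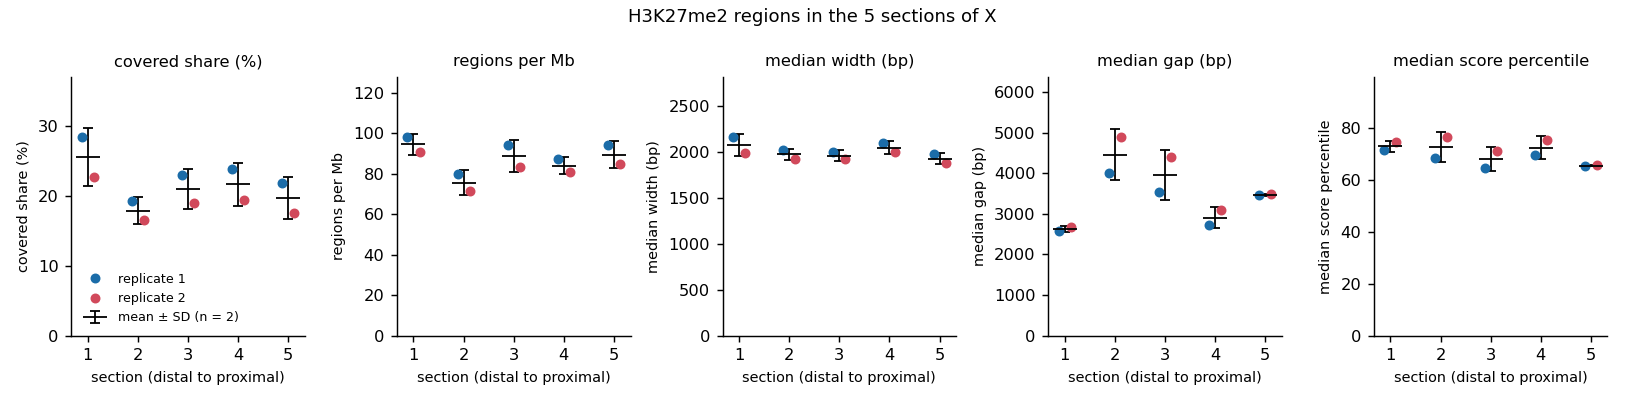
Covered share, regions per Mb, median width, median gap and median score percentile (y axes, each from 0) in the 5 sections of X from distal to proximal, with each replicate as a point and mean ± SD (n = 2) as a black bar. Section 1 stands above section 2 in covered share in both replicates, while the means of the median widths stay between 1931 and 2082 bp.

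High windows were gathered in a few places. Of the 18 windows with a mean covered share of at least 40%, 8 lay in section 1, 0 in section 2, 3 in section 3, 6 in section 4 and 1 in section 5, and 6 of those in section 1 lay in its distal 2 Mb. No count of such windows on the autosomal arms is given here. The highest window ran from 1000001 to 1100000, with 68.2% covered in replicate 1 and 57.9% in replicate 2. It held 17 regions in replicate 1, between 1318 and 10970 bp wide, and 18 in replicate 2, between 1534 and 8112 bp wide. Gaps there had a median of 1428 bp in replicate 1 and 1799 bp in replicate 2. The combined list covered 91.1% of that window with only 11 regions, up to 29049 bp wide.

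The second highest window, from 18900001 to 19000000, was covered to 61.0% in replicate 1 and 58.4% in replicate 2, with 21 regions in each. Its regions ran from percentile 2.66 to 99.6 of score in replicate 1 and from 20.5 to 99.6 in replicate 2, so a well-covered window was not uniformly high in score. The windows from 1400001, 1600001 and 14000001 followed, at 53.1% ± 12.6, 52.4% ± 10.1 and 51.8% ± 7.47 (SD, n = 2 each). Across windows, covered share and median score percentile were only weakly related, with a rho of 0.19 over 220 windows in replicate 1 and 0.16 over 216 in replicate 2. Covered share followed the number of regions instead, with a rho of 0.91 in replicate 1 and 0.92 in replicate 2.

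Summed over megabases, coverage on X had 2 peaks of nearly equal height. From 1000001 to 2000000 it was 36.2% ± 7.17, and from 18000001 to 19000000 it was 36.1% ± 4.41 (SD, n = 2 each). The next highest megabase, from 2000001 to 3000000, had 27.9% ± 4.28.

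Empty windows were few. On X, 3 windows had no covered base in either replicate (1.34% of its windows; all 5 major arms together 0.841%), from 15600001 to 15700000, from 19500001 to 19600000 and from 20500001 to 20600000, and no 2 of them were neighbours. The combined list covered 2.16%, 3.07% and 3.70% of them. Another 6 windows were empty in 1 replicate only, 5 of them in replicate 2. In replicate 1, windows without a covered base were 1.79% on X and 0.870% to 1.22% on the autosomal arms. In replicate 2 they were 3.57% on X and 0.717% to 2.37% on the autosomal arms. Counts of empty windows depend on where windows begin, as a grid starting 50 kb further in had 0 windows empty in both replicates. Windows under 5% as the mean of the replicates numbered 20, with 8 of them in section 4, which thus held many of both the highest and the lowest windows. No count of windows under 5% on the autosomal arms is given here.

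The longest stretch of X with no region in any list ran for 134039 bp, from 16160843 to 16294881 in section 4. In the 100 kb on its distal side 10.3% was covered in replicate 1 and 9.04% in replicate 2, and on its proximal side 11.3% and 11.7%. It thus lay inside a sparse neighbourhood. The second, from 9557901 to 9676991 (119091 bp), bordered denser sequence on its proximal side, with 26.3% and 23.9% covered in replicates 1 and 2. Next were stretches from 17630221 to 17747435 (117215 bp) and from 4427689 to 4533021 (105333 bp). The fifth, from 4272931 to 4366440 (93510 bp), bordered a distal side with 34.4% covered in replicate 1 and 29.2% in replicate 2. In all, 33 such stretches of at least 50 kb took up 10.9% of X, and 12 of them lay in section 4, 10 in section 2, 5 in section 1, 4 in section 5 and 2 in section 3. The like count on the autosomal arms is not given here. Sequence that reads could not be placed on was not identified here, and it cannot be told apart from unmarked sequence.

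The widest domains were not in the same section in every list. Of the 10 widest X regions in the combined list, 5 lay in section 1, 1 in section 2, 3 in section 3 and 1 in section 4. The widest ran from 1293896 to 1332806 (38911 bp), at percentile 95.7 of score. In replicate 1 it was covered to 96.3% by 3 regions, and in replicate 2 to 71.0% by 11 regions. The longest of those in replicate 1, from 1307862 to 1331915 (24054 bp), was the widest X region of that list, and 9 regions of replicate 2 covered 68.8% of it. One domain in replicate 1 was thus a chain of short calls in replicate 2. In replicate 2 the widest region of section 1 spanned 8661 bp, and the 5 widest X regions lay in sections 2, 3 and 4.

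Another domain was called alike in both replicates. The widest X region of replicate 2, from 17958392 to 17971961 (13570 bp), lay wholly within the second widest of replicate 1, from 17958279 to 17972374 (14096 bp). Both ranked high, at percentile 97.8 in replicate 2 and 96.7 in replicate 1. The remaining wide regions were split in the other replicate. The third widest of replicate 1, from 18501676 to 18515632 (13957 bp), was covered to 75.1% by 2 regions of replicate 2. The second widest of replicate 2, from 18924298 to 18936083 (11786 bp), was covered to 92.8% by 4 regions of replicate 1. Next in replicate 1 came regions of 13304 bp from 619162 and 13248 bp from 1417882, covered to 82.3% and 52.2% by 3 regions each in replicate 2. Next in replicate 2 were regions of 10753 bp from 7605114, 10129 bp from 14889674 and 9490 bp from 5666915. They were covered in replicate 1 to between 75.1% and 84.8%, by 3, 3 and 2 regions.

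The highest scores on X sat in other regions than the widest domains, and several of them were narrow and close to the proximal end. In replicate 1 the top X region ran from 22373583 to 22375252 (1670 bp) with a score of 1.44, and had no overlap in replicate 2. In replicate 2 the top X region ran from 21803429 to 21805224 (1796 bp) with a score of 2.07, and had no overlap in replicate 1. The second highest of each list overlapped in part, from 21606617 to 21608295 in replicate 1 and from 21607971 to 21609627 in replicate 2 (19.4% and 19.6% of their widths). Wider regions among the top 5 were shared, such as that from 19761806 to 19766942 in replicate 1 (5137 bp), covered to 99.5% in replicate 2. The highest score of the combined list on X, 2.63, belonged to a region of 1001 bp from 325386 to 326386. That was the smallest width in the combined list on X and on every autosomal arm. Combined X regions from 1000 to 1100 bp wide had a median score percentile of 60.1, and those from 1400 to 1500 bp had 28.4. Autosomal regions had 35.2 and 10.4 in these classes, so raised ranks at the smallest widths were not particular to X. Of the 10 highest-scoring X regions of that list, 6 lay in section 5, and all 10 were between 1001 and 1697 bp wide. Regions of both replicates overlapped 0 of these 10, regions of 1 replicate overlapped 4, and 6 had no overlap.

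The replicates called X alike at the scale of windows and less so at the scale of single regions. Covered shares of the 224 windows correlated with a Spearman's rho of 0.92 between replicates, and the number of regions per window with 0.86. The median score percentile of a window correlated with only 0.38, over 215 windows with regions in both. Replicate 1 was higher in 184 windows, replicate 2 in 37, and 3 were empty in both. The largest difference was 17.8 percentage points, in the window from 1400001, with 62.0% in replicate 1 and 44.2% in replicate 2. Next were the windows from 21000001 (37.3% and 20.7%), 18500001 (46.9% and 30.4%), 20900001 (27.7% and 11.9%) and 2200001 (44.4% and 29.5%), each higher in replicate 1.

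**Figure D5:**
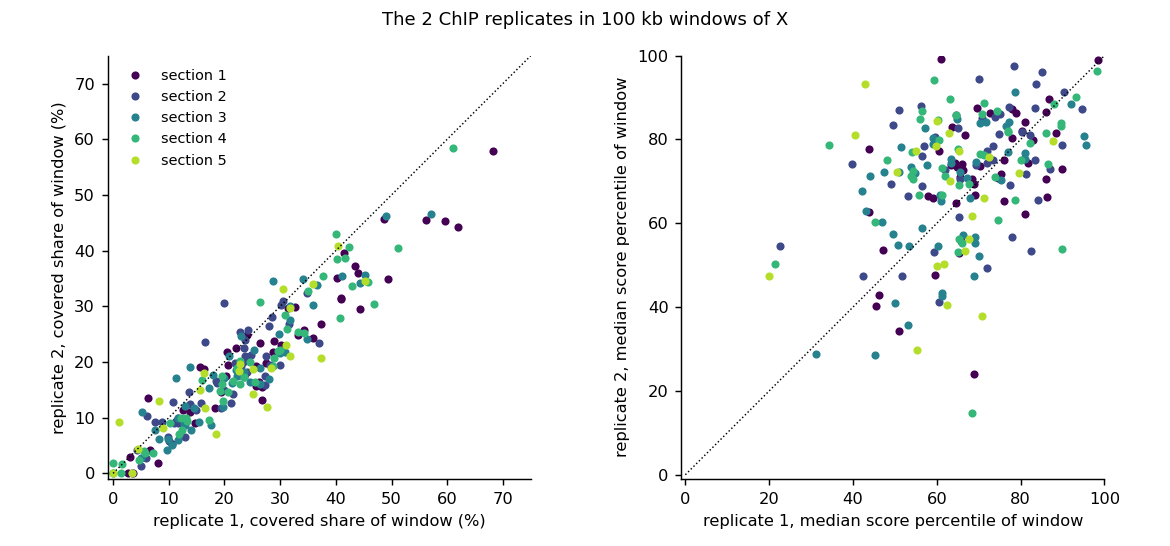
Replicate 2 (y axis) against replicate 1 (x axis) for each full 100 kb window of X, as covered share in percent (left) and as median score percentile (right), coloured by section; the dotted line marks equal values. Points on the left follow the line from slightly below it (184 of 224 windows are higher in replicate 1), and those on the right scatter widely (rho of 0.38).

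Region by region, 68.8% of X regions in replicate 1 (1393) shared at least 1 bp with a region of replicate 2, and 80.3% of those in replicate 2 (1474) with one of replicate 1. The whole lists had 68.8% and 82.8%, so X was at or slightly under the background. Single autosomal arms had 67.4% to 74.0% in replicate 1 and 82.1% to 88.4% in replicate 2, where X was thus lowest. X was also lowest in shared sequence over all sequence called in either replicate, at 0.473 against 0.493 to 0.565 on the autosomal arms. Both measures depend on how much sequence is called, and X had the lowest covered share too. It was 23.4% against 27.7% to 34.3% on the autosomal arms in replicate 1, and 19.2% against 21.8% to 27.1% in replicate 2. Whether overlap on X was lower at equal coverage was not tested. By section, the share in replicate 1 ran from 59.6% in section 5 to 73.3% in section 4, and in replicate 2 from 70.7% in section 5 to 85.7% in section 1. The shared sequence was 0.394 of all sequence called in either replicate in section 5 and between 0.435 and 0.512 in the other sections. Shared X regions were wider, with medians of 2317 bp in replicate 1 and 2043 bp in replicate 2, against 1692 and 1559 bp for those in 1 replicate alone. Shared regions also ranked higher, at percentile 75.9 in replicate 1 and 76.7 in replicate 2, against 51.8 and 60.4 for the others. Wider regions meet the rule of 1 bp more readily, and score rank rose with width, so neither difference is independent of the rule.

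Where a region of each replicate overlapped the other by at least 50%, the borders were close. As the mean of the replicates, 51.0% of X regions met this rule. It limits how far borders can differ, so the closeness follows in part by construction. For these 982 pairs on X, starts differed by a median of 286 bp and ends by 273 bp. The region of replicate 1 was the wider in 64.2% of pairs, and score percentiles correlated with a rho of 0.56. On the autosomal arms the same correlation lay between 0.54 and 0.64, and the median start distance between 265 and 280 bp. Pairs on X thus had borders about as close as elsewhere, where pairs were chosen by the same rule.

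Regions found in 1 replicate alone included some wide ones. The widest on X in replicate 1 ran from 1891596 to 1896617 (5022 bp, percentile 94.6), followed by those from 7890325 to 7895106 (4782 bp), 18577968 to 18582543 (4576 bp), 4958131 to 4962109 (3979 bp) and 21278133 to 21281853 (3721 bp). In replicate 2 the widest ran from 18936221 to 18940718 (4498 bp, percentile 76.7), next to the border of one of the widest X regions of that list. The others there began at 7348776, 14395205, 9547516 and 4777791, and were between 3416 and 4250 bp wide. Together these 10 regions lay in all 5 sections.

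The combined list covered 40.7% of X with 2823 regions, whose gaps had a median of 1479 bp. It contained 99.3% of the X sequence of replicate 1 and 98.5% of that of replicate 2, while 2.74 Mb of it, or 30.0%, lay in neither. Of its X regions, 1124 (39.8%) overlapped both replicates (whole list 41.1%), 495 replicate 1 only, 293 replicate 2 only and 911 (32.3%) neither. For these other classes, and for sequence in neither, no whole-list share is given here. Whether they are particular to X was not tested. Regions in both had a median width of 4201 bp and score percentile of 82.8, and those in neither 1405 bp and 45.7. Wider regions overlap a replicate more readily, so this contrast in width follows in part by construction. The share in both ran from 34.0% in section 5 to 45.4% in section 1. In the combined list section 5 had the most regions per Mb, 156, and the second highest covered share, 43.6%, although its share in the replicates was below that of 3 other sections.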

How the data were processed

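Enriched regions of H3K27me2 were read from 3 deposited lists, 1 per ChIP sample and 1 combined. The submitters' processing notes name Bowtie 0.12.7, and coordinates are of FlyBase release 5 per the file headers. Not given in the sources used here were the region caller, its threshold and the pooling of replicates. Each region carries the authors' deposited score, whose scale is not named, so scores were turned into percentiles of the whole list (mean rank for ties). Separate embryo collections are not stated for the ChIP samples, so their spread may be technical.

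Width was end minus start plus 1, gaps were measured between merged regions, and windows of 100 kb and sections of 5 Mb were counted from base 1. Regions were assigned to windows and sections by midpoint, and covered bases by position. Named regions and windows were the widest and highest-scoring, the widest without overlap, the first and last, the longest gaps, and the most covered, empty and most different windows, by ranks. Members, lists and classes were chosen with earlier results of these data known. The gene table given is of release 6, so no region was assigned to a gene and no sequence is shown. Alternatives were a median-score threshold, equal numbers, merging under 1 kb, other windows and sections, 50% overlap rules, and each replicate left out. Interval code was tested on simulated data. Scripts ran under Python 3.11.15 with pandas 2.3.3, numpy 2.4.6, matplotlib 3.10.9 and scipy 1.17.1.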

Additional observations from a re-analysis of the deposited data

How the results depend on the processing

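When regions scoring below their list's median were left out, X had 17.4% covered (21.3% with all regions), 62.5 regions per Mb (86.1), a median width of 2272 bp (2001), a median gap of 5144 bp (3412) and a median score percentile of 61.1 (70.9). X minus autosomal arms then reversed to 17.5 regions per Mb (-13.7 with all), to 1.04 points of covered share (-5.82), to -3049 bp in median gap (603) and to -0.10 in coefficient of variation of windows (0.04), and was -712 bp in median width (-92.8) and 15.5 in median score percentile (25.7). X kept more of its regions by construction, since its scores are higher. The Jaccard index was 0.439 (0.473), and 42.7% of combined X regions overlapped both replicates (39.8%). Merging regions under 1 kb apart, which joins neighbours by construction, gave 66.5 regions per Mb, a width of 2209 bp and gaps of 5400 bp, or -7.00, -287 bp and 745 bp against the autosomal arms. Equal numbers of top-scoring regions gave -8.84 per Mb, -166 bp and 440 bp for those differences, 0.030 for the variation and an index of 0.475. Chosen after seeing the data, the combined list gave 40.7% covered, 126 regions per Mb (-5.54 against the autosomal arms), 2247 bp (-206), gaps of 1479 bp (210), a median score percentile of 61.8 (17.7 above), and 0 empty windows. Regions of at least 2 kb gave 19.8 for the score difference. Section 1 minus section 4, the most proximal full section of 5 Mb, was 3.90 points of covered share, and 6.27 in the combined list. With sections of 2 Mb the like difference was 12.1 points. It set other stretches against each other, the most distal 2 Mb and that from 20000001 to 22000000, and so is not the same contrast. Windows empty in both replicates (3) numbered 25 at 50 kb and 0 at 200 kb or shifted by 50 kb. The overlap of regions, 74.5% as the mean, was 51.0% at 50% reciprocal overlap, and 27.8% of combined regions had at least 50% of their length in each replicate. With either replicate left out, covered share ran from 19.2% to 23.4%, regions per Mb from 81.9 to 90.3, median width from 1951 to 2051 bp, median gap from 3196 to 3629 bp, score percentile from 68.0 to 73.9, X minus autosomal density from -15.3 to -12.2, covered share from -6.90 to -4.73 and width from -110 to -75.5, the section difference from 3.20 to 4.60 points and empty windows from 4 to 8. No paired analysis was possible because only the ChIP samples have region lists, although the labels give replicate numbers to the inputs too. Overlap needs both replicates. The gene lists were not run, since no annotation of release 5 was used here. Unknown depth limits every statement on uncalled sequence.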
